A study of Homo sapiens with 9 samples.

Results

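The 9 genes described here encode enzymes of the pentose phosphate pathway and of the step that leads from it to phosphoribosyl pyrophosphate (PRPP). They were taken by symbol from a table of 18364 human genes, and all 9 had a row. H6PD, PGLS and PGD formed the oxidative branch (3 genes), RPE, RPIA, TKT and TALDO1 the non-oxidative branch (4 genes), and PRPS1 and PRPS2 the PRPP step (2 genes). RNA had been sequenced from whole tumours that grew in the brains of nude mice, which lack mature T cells, after injection of LN229, an established human glioblastoma line, and that were taken at the terminal stage. The cells of 6 tumours were LN229-4SA (genotype TAZ-4SA) and those of 3 tumours LN229-EV (genotype empty vector). TAZ, the product of WWTR1, is a transcriptional co-activator of the Hippo pathway, and in the 4SA form serines that Hippo kinases phosphorylate are replaced by alanine. The labels do not say whether either line was 1 clone or a pool. The series concerns thioredoxin reductase and disulfidptosis, a death of glucose-starved cells tied to disulfide stress, and the comparison asked what TAZ activation changes in these tumours.

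The oxidative branch turns glucose 6-phosphate into ribulose 5-phosphate and makes NADPH, which thioredoxin and glutathione reductases use to reduce disulfides. The non-oxidative branch converts the resulting pentoses among themselves and back into glycolytic sugars by reversible reactions. Ribose 5-phosphate can instead leave the pathway as PRPP, the activated ribose used to build purine, pyrimidine and nicotinamide nucleotides. Glioblastoma cells, like other dividing cells, draw on the pathway for both NADPH and ribose.

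Levels are in CPM, the reads of a gene scaled to the size of its library, with the authors' prior removed. The 6 TAZ-4SA libraries held 3144861 to 31468135 recovered reads and the 3 EV libraries 17314672 to 21576264. The number of genes at 0 reads ran from 505 to 622 over the EV tumours and from 2990 to 7365 over the TAZ-4SA tumours. Among genes at a mean of 10 to 50 CPM in the other tumours of their group, 16.3% had 0 reads in TAZ-4SA tumour 2, 11.9% in tumour 3 and 9.56% in tumour 4, between 0.353% and 2.78% in tumours 1, 5 and 6, and 0.00% in each EV tumour. The EV tumours held WWTR1 at 116 to 123 CPM and the TAZ-4SA tumours at 218 to 449 CPM, in the direction of the labels. Glial markers (6 of 6 in the table) summed to 3253 to 3642 CPM over the EV and 1875 to 3056 CPM over the TAZ-4SA tumours. VIM made up most of the sum in TAZ-4SA, at 1480 to 2910 CPM against 1616 to 2092 CPM in EV, while NES was at 99.9 to 258 CPM against 1290 to 1360 CPM, S100B at 0.00 to 10.4 CPM against 163 to 250 CPM, and GFAP, SOX2, OLIG2 and S100B each had 0 reads in 1 or more TAZ-4SA tumours. Neuron markers (5 of 5) ran from 29.5 to 127 CPM in EV and from 84.5 to 1248 CPM in TAZ-4SA, oligodendrocyte markers (5 of 5) from 192 to 275 and from 8.52 to 320 CPM, and astrocyte markers (4 of 4) from 20.9 to 25.9 and from 28.9 to 77.0 CPM, with MOG and MOBP at 0 reads in all TAZ-4SA tumours. GJA1 made up most of the astrocyte sum in TAZ-4SA, while AQP4, ALDH1L1 and SLC1A2, all present in each EV tumour, had 0 reads in 4, 3 and 2 TAZ-4SA tumours. Microglia and macrophage markers (5 of 8) summed to 32.9 to 141.8 CPM in TAZ-4SA, mostly CD68, and 13.7 to 24.1 CPM in EV, with P2RY12 at 0 reads in all TAZ-4SA tumours. Endothelial markers (5 of 5) ran from 9.48 to 14.6 CPM in EV and from 0.00 to 13.2 CPM in TAZ-4SA. The glial, astrocyte, and microglia and macrophage sums did not overlap between the groups, while the neuron, oligodendrocyte and endothelial sums did. The part of these lists in the results below was not tested. In whole-tumour RNA, fewer cells of a type cannot be told apart from less RNA per cell.

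For 3 of the 9 genes, H6PD, PGD and RPE, the tumours of the 2 groups did not overlap, with TAZ-4SA lower for 2 of 9, against 21.0% of the 15294 genes tested, and higher for 1 of 9, against 11.0%. These shares are near those of all genes, and the promoters of the 3 are shown because their tumours separate. Each run is the RefSeq promoter on GRCh38.p14, plus strand, 5′ to 3′, 250 bases before and 50 after the start. Capitals mark matches, on either strand, to TGACNNNGC, the core of the antioxidant response element bound by NRF2. H6PD lay at chr1:9239597-9239896, around a start inside the span of the gene given below, PGD at chr1:10398814-10399113 and RPE at chr2:210002388-210002687.
H6PD: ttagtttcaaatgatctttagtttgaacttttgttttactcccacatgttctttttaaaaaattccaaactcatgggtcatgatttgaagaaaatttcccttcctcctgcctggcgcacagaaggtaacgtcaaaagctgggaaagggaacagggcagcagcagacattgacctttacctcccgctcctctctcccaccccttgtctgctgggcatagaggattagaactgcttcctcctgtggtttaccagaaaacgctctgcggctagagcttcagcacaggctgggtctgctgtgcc
PGD: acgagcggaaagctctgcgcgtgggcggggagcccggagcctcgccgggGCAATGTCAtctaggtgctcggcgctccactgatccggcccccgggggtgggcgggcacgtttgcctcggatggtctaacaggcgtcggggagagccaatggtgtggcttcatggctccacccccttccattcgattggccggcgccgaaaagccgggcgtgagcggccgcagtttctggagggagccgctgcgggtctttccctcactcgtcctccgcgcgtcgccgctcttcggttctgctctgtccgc
RPE: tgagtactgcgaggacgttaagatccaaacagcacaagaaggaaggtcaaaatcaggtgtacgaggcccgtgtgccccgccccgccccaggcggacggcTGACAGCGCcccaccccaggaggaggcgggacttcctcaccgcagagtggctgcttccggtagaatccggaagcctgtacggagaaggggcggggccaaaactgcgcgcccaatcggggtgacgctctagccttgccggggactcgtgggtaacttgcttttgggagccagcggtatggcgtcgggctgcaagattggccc

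All 9 genes had a RefSeq promoter, and 3 motifs were searched on both strands. TGACNNNGC occurred in 13.6% of 27305 promoters of the same length, and among the 9 genes it was found in PGD, where it begins 201 bases before the start on the minus strand, and in RPE, 151 bases before the start on the plus strand. GGAATG, the core of the motif of TEAD factors, through which TAZ acts, occurred in 14.0% of all promoters and in those of RPIA and PRPS1. CACGTG, the E-box, occurred in 7.43% of all promoters and in none of the 9. The 2 genes that share TGACNNNGC, PGD and RPE, lay on opposite sides of their EV levels, as given below. The matches are letters in a window and were not tested as sites.

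In the oxidative branch, H6PD and PGD fell in the TAZ-4SA tumours, and PGLS varied too widely among them for a call. PGD, on chromosome 1 from 10399064 to 10420511, encodes 6-phosphogluconate dehydrogenase, which makes NADPH and ribulose 5-phosphate in the cytosol. The PGD level was 121, 103 and 115 CPM in EV tumours 1, 2 and 3, and in the 6 TAZ-4SA tumours its lowest was 42.3, its median 45.9 and its highest 64.4 CPM. Every TAZ-4SA tumour lay below every EV tumour, and the TAZ-4SA values stayed close together. Mean PGD fell from 113 ± 8.91 CPM (SD, n = 3) to 51.0 ± 10.4 CPM (SD, n = 6), which is 2.22-fold lower, and the log2 fold change was -1.17 ± 0.31 (SE, limma adjusted p = 0.01733). The SD of log2 CPM over the TAZ-4SA tumours was 0.28 for PGD, and 2.55% of the 8274 tested genes in the same range of EV means had a smaller one.

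H6PD, on chromosome 1 from 9234774 to 9271337, encodes hexose-6-phosphate dehydrogenase, which carries out the first steps of the oxidative branch inside the endoplasmic reticulum and supplies NADPH there. H6PD was at 194, 157 and 132 CPM in EV tumours 1, 2 and 3. Across the TAZ-4SA tumours H6PD ran from 26.3 through a median of 39.1 to 97.1 CPM. All 6 lay below all EV values, with tumours 3 and 5, at 81.6 and 97.1 CPM, nearest to them. Mean H6PD fell from 161 ± 31.0 CPM (SD, n = 3) to 52.4 ± 29.5 CPM (SD, n = 6), 3.07-fold lower, and its log2 fold change was -1.78 ± 0.44 (SE, limma adjusted p = 0.01356). Leaving out 1 EV tumour ended these calls: H6PD without EV tumour 1 or 2 (limma adjusted p = 0.08028 and 0.05912), and PGD without EV tumour 1, 2 or 3 (0.1182, 0.08418 and 0.08208), while all these fold changes stayed between -1.79 and -1.12.

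PGLS, on chromosome 19 from 17511649 to 17521288, encodes 6-phosphogluconolactonase, which opens the lactone ring between the 2 dehydrogenase steps. PGLS was at 38.1, 45.4 and 29.98 CPM in EV tumours 1, 2 and 3. In TAZ-4SA tumours 1 to 6 it was at 19.6, 0.202, 36.3, 3.23, 52.9 and 0.306 CPM. Tumours 3 and 5 were within or above the EV range, whereas tumours 2 and 6 held 2 and 1 reads, below the floor of 3 reads. The log2 fold change of PGLS was -2.84 ± 1.64 with a 95% interval from -6.39 to 0.71 (limma adjusted p = 0.2259). The SD of log2 CPM over the TAZ-4SA tumours was 3.19, larger than for 90.7% of the 8274 genes. TAZ-4SA tumours 2, 3 and 4, with 16.3%, 11.9% and 9.56% of mid-level genes at 0 reads, held 2, 590 and 90 PGLS reads. Tumours 1, 5 and 6, with 2.78%, 0.353% and 2.51% of them at 0, held 367, 189 and 1. These libraries differ in size, and whether PGLS followed the detection of other genes was not tested. A GENCODE long non-coding gene, AC010618.3, shares 25.4% of the exon bases of PGLS on the opposite strand, and reads of the pair cannot be told apart without strand.

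**Figure D1:**
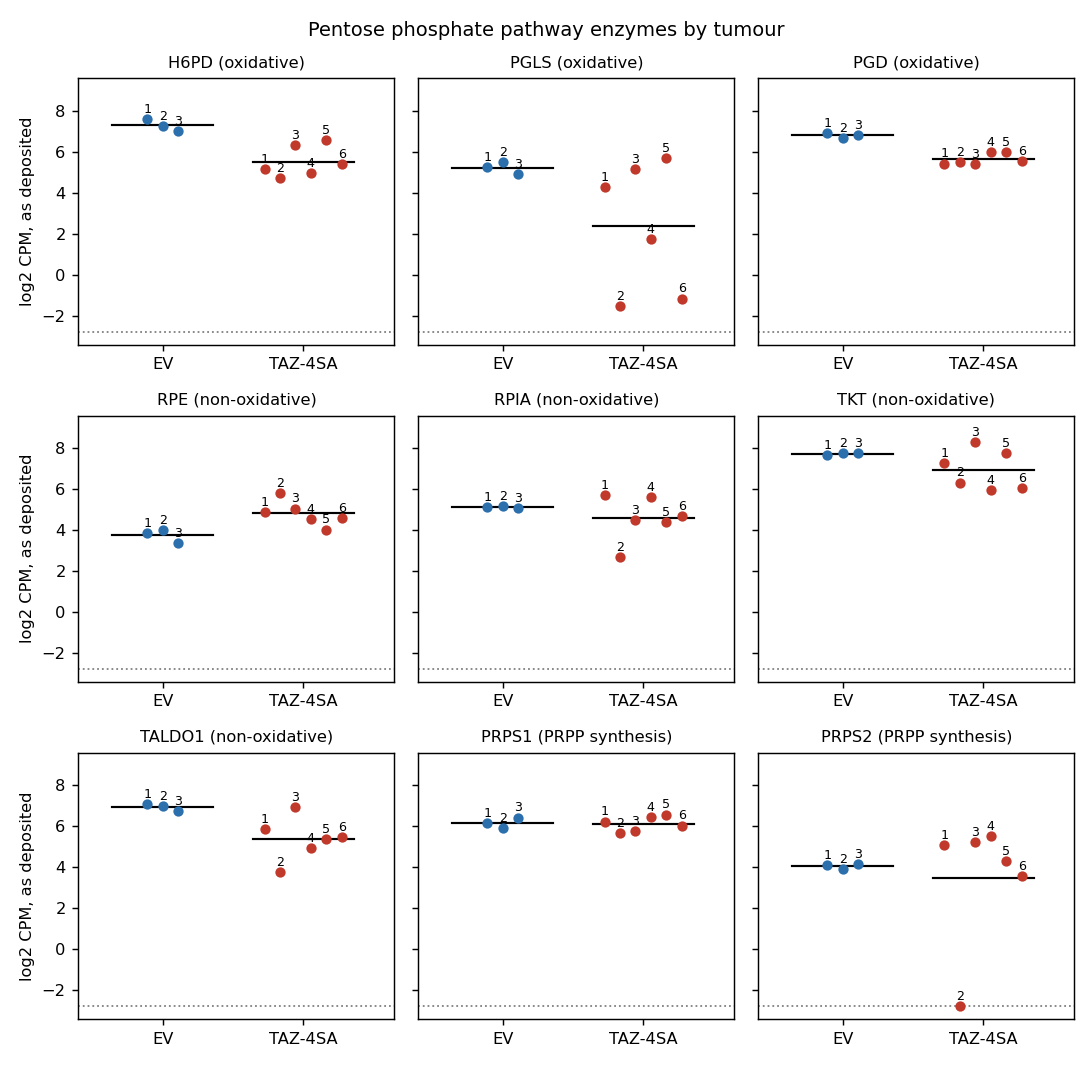
Log2 CPM as deposited (vertical axis) of each of the 9 genes in EV (blue, n = 3) and TAZ-4SA (red, n = 6) tumours, with each point numbered by its tumour, bars at the group means and a dotted line at 0 reads. H6PD and PGD lie lower in all 6 TAZ-4SA tumours and RPE higher, while PGLS spans from 2 reads in tumour 2 and 1 read in tumour 6 to above the EV range and PRPS2 has 0 reads in tumour 2.

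No gene of the non-oxidative branch was called, and its members lay on both sides of their EV levels. RPE, on chromosome 2 from 210002638 to 210022260, encodes the epimerase that interconverts ribulose and xylulose 5-phosphate. RPE was at 14.6, 15.99 and 10.3 CPM in EV tumours 1, 2 and 3 and at 16.2, 26.8 and 55.8 CPM (lowest, median and highest) in TAZ-4SA. Every TAZ-4SA tumour lay above every EV tumour, but tumour 5, the lowest, did so by little. Mean RPE was 13.6 ± 2.99 CPM over EV (SD, n = 3) and 30.4 ± 13.8 CPM over TAZ-4SA (SD, n = 6), with a log2 fold change of 1.07 ± 0.54 (SE, limma adjusted p = 0.1721). A fit on the recovered reads with weights per group (limma-voom) called RPE (limma adjusted p = 0.03093).

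Reads of other genes bear on RPE. RPEL1, a near-identical intronless copy, had 11.2 CPM in TAZ-4SA tumour 2, the tumour with the highest RPE, and 0 reads in the other 5 TAZ-4SA tumours, against 0.129 to 0.291 CPM in EV, so reads of the pair may be divided between them. The sum of both ran from 16.2 to 67.0 CPM in TAZ-4SA and from 10.4 to 16.3 CPM in EV, where the groups overlap. KANSL1L shares 23.9% of the exon bases of RPE on the opposite strand. KANSL1L was also highest in TAZ-4SA tumour 2, at 36.7 CPM, and had 0 reads in tumour 3, where RPE was at 33.3 CPM. RPE, RPEL1 and KANSL1L were thus all highest in tumour 2, and without that tumour the log2 fold change of RPE was 0.87. RefSeq also lists pseudogenes of RPE, RPIA, PGD, TALDO1 and PRPS1, and reads shared with such copies leave the counts of these genes uncertain.

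RPIA, on chromosome 2 from 88691673 to 88750929, encodes the isomerase that turns ribulose 5-phosphate into ribose 5-phosphate. RPIA was at 35.2, 36.5 and 34.0 CPM in EV tumours 1, 2 and 3, an SD of 1.24 CPM. In TAZ-4SA it was lowest at 6.36, with a median of 24.0 and a highest value of 52.4 CPM. Tumours 1 and 4, at 52.4 and 49.0 CPM, were above the EV range and the other 4 below it. The log2 fold change was -0.54 ± 0.62 (limma adjusted p = 0.5472), and -0.16 without TAZ-4SA tumour 2. RPE and RPIA compete for the same substrate, and the RPE to RPIA ratio was 0.414, 0.439 and 0.302 in the EV tumours and lay between 0.477 and 8.78 in the TAZ-4SA tumours. All TAZ-4SA ratios were above all EV ratios, the one of 8.78 being tumour 2, where RPE was highest and RPIA lowest; this ratio was looked at after the values were seen and was not tested.

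TKT, on chromosome 3 from 53224712 to 53256022, encodes transketolase, which moves carbon pairs between sugars and joins the branch to glycolysis. TKT was at 204, 220 and 219 CPM in EV tumours 1, 2 and 3, and at 61.6, 119 and 315 CPM (lowest, median and highest) in TAZ-4SA. TAZ-4SA tumour 3 was above the EV range, tumour 5 within it at 215 CPM, and tumours 2, 4 and 6 lay between 61.6 and 80.3 CPM. The SD of TKT was 9.09 CPM over the EV and 101.1 CPM over the TAZ-4SA tumours, and the log2 fold change was -0.79 ± 0.49 (limma adjusted p = 0.2582).

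TALDO1, on chromosome 11 from 747464 to 765012, encodes transaldolase, the other enzyme that shuttles carbon units back towards glycolysis. TALDO1 was at 138, 127 and 106 CPM in EV tumours 1, 2 and 3, and at 13.6, 43.1 and 124 CPM (lowest, median and highest) in TAZ-4SA. Tumour 3 alone reached the EV range, and the other 5 were below it at 13.6 to 58.9 CPM. The means were 52.3 ± 38.4 CPM (SD, n = 6) and 124 ± 15.97 CPM (SD, n = 3), with a log2 fold change of -1.54 ± 0.55 just outside the threshold (limma adjusted p = 0.06297). TALDO1 was called in 6 of 23 alternative fits and not called in 17. The 6 include those without TAZ-4SA tumour 3 (limma adjusted p = 0.01448), after median-of-ratios scaling (0.04317) and on recovered reads (0.03562). The 17 include those without EV tumour 1, 2 or 3 (limma adjusted p = 0.1876, 0.1747 and 0.1294). TAZ-4SA tumour 3 had the highest TKT and the highest TALDO1 of its group.

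**Figure D2:**
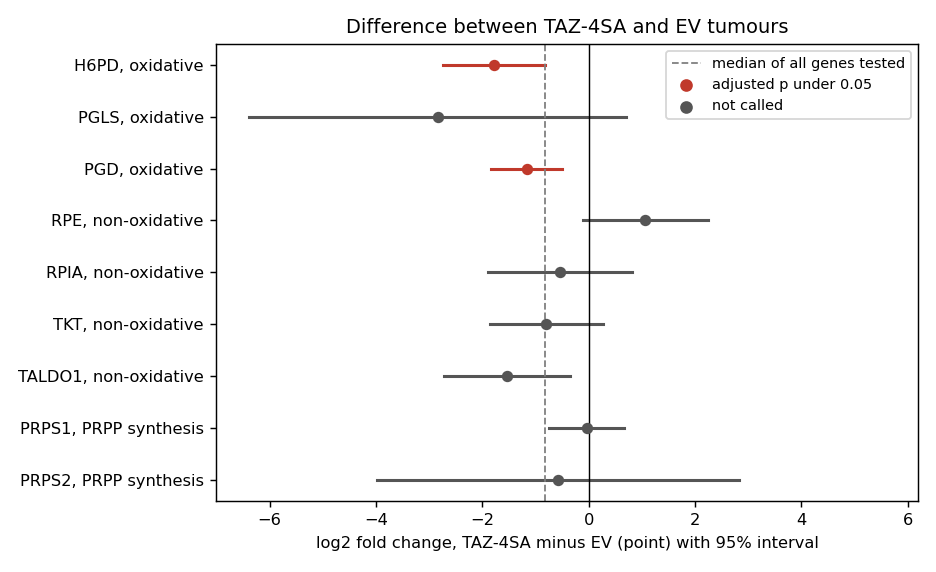
Log2 fold change (TAZ-4SA minus EV, horizontal axis) of the 9 genes with its 95% interval from limma, red where the adjusted p was under 0.05 and grey where it was not, with a dashed line at the median of all genes tested (-0.83). The intervals of H6PD, PGD and TALDO1, which are not adjusted for the number of genes, lie below 0, that of RPE runs from -0.10 to 2.24, and those of PGLS and PRPS2 are the widest.

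Both PRPP synthetase genes overlapped between the groups. PRPS1 and PRPS2, on chromosome X from 107628510 to 107651026 and from 12791412 to 12824222, encode isoenzymes that attach pyrophosphate to ribose 5-phosphate. PRPS1 was at 70.7, 60.5 and 86.1 CPM in EV tumours 1, 2 and 3 and at 50.8, 70.5 and 95.4 CPM (lowest, median and highest) in TAZ-4SA. Tumours 2 and 3 of TAZ-4SA were below the EV range, 4 and 5 above it and 1 and 6 within it. The means were 71.7 ± 17.7 CPM over TAZ-4SA and 72.4 ± 12.9 CPM over EV. The log2 fold change was -0.037 with a 95% interval from -0.74 to 0.67 (limma adjusted p = 0.9428). A change of either sign inside that interval is compatible with these tumours. PRPS1L1, an intronless copy, had 3.92 CPM in TAZ-4SA tumour 5, which had the highest PRPS1, and 0 reads in the other 5. The sign of the PRPS1 value turned after quantile normalization (0.040) and without TAZ-4SA tumour 2 (0.055) or 3 (0.030) or EV tumour 3 (0.095).

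PRPS2 was at 17.4, 14.8 and 18.0 CPM in EV tumours 1, 2 and 3, and at 34.0, 0.00, 37.6, 45.7, 19.6 and 11.9 CPM in TAZ-4SA tumours 1 to 6. Tumours 1, 3, 4 and 5 were above the EV range and tumour 6 below it. Tumour 2 had 0 reads, where a count of 0 allows up to 0.303 CPM, so PRPS2 there was at least 55.3-fold lower than the EV mean, for counting error only. The log2 fold change was -0.58 ± 1.57 (limma adjusted p = 0.8105) and turned to 0.68 without TAZ-4SA tumour 2. With a pseudocount of 0.1 CPM it was -0.67, and with 2 CPM it was -0.0095. Mean PRPS2 lay the other way, at 24.8 ± 17.3 CPM in TAZ-4SA (SD, n = 6) and 16.7 ± 1.68 CPM in EV (SD, n = 3). PRPS1 had 503 reads in TAZ-4SA tumour 2.

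The balance of the isoenzymes was tested within each tumour, where library scaling has no effect. There were 4.07, 4.08 and 4.79 PRPS1 reads for each PRPS2 read in EV tumours 1, 2 and 3. In TAZ-4SA tumours 1, 3, 4, 5 and 6 the ratio was 2.22, 1.47, 1.92, 4.87 and 5.51, and in tumour 2 at least 168 with PRPS2 set to 3 reads. The ratio was below the EV range in tumours 1, 3 and 4 and above it in 2, 5 and 6. The mean log2 ratio differed by 0.36 between the groups (exact two-sided permutation test over 84 arrangements, p = 0.9048, smallest possible 0.02381), and by -0.63 without TAZ-4SA tumour 2 (exact permutation p = 0.3571).

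Over the members, 2 of 9 were called lower, where 12.6% of the 15294 genes tested were, and 0 of 9 were called higher by limma, where 9.08% were (no member higher at an unadjusted p under 0.05). The groups did not overlap with TAZ-4SA lower for 2 of 9, against 21.0% of all genes, and with TAZ-4SA higher for 1 of 9, against 11.0%. The median log2 fold change was -0.79 over the 9 genes and -0.83 over all genes tested as deposited, and how the medians compare depended on the setting. They were -0.69 and -0.15 after quantile normalization, -0.79 and -0.41 among genes at a mean of at least 10 CPM, which all 9 members passed, and -0.78 and -0.41 with a pseudocount of 2 CPM. After quantile normalization, 1924 genes were called higher and 1622 lower in place of 1388 and 1932. Relative to the overall median, PGD was at -0.34 and H6PD at -0.95 as deposited, and at -0.94 and -1.53 after quantile normalization, with both called (limma adjusted p = 0.02187 and 0.01574). RPE was at 1.90 relative to that median as deposited and at 1.54 after quantile normalization. TKT, RPIA and PRPS2 lay 0.037, 0.29 and 0.25 above it as deposited and -0.54, -0.23 and -0.069 from it after quantile normalization.

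The TAZ-4SA tumours differed from each other across the pathway, as they did over other genes. The median SD of log2 CPM over them was 0.97 for the 9 genes. It was also 0.97 for the 8274 tested genes in the same range of EV means. Over the EV tumours these medians were 0.19 and 0.23. Tumour 2 had the lowest value of the group for 6 of the 9 genes (H6PD, PGLS, RPIA, TALDO1, PRPS1 and PRPS2) and the highest for RPE. Tumour 5 had the highest value for 4 genes (H6PD, PGLS, PGD and PRPS1) and the lowest for RPE. The median difference from the EV mean over the 9 genes was -2.44 on the log2 scale in tumour 2 and 0.005 in tumour 5, and over all genes tested it was -1.15 and -0.17 in the same tumours. The tumours with the lowest and highest pathway levels were therefore also those with the lowest and highest median over the table. PGD had the narrowest range of these differences among the 9 genes, from -1.41 to -0.81.

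**Figure D3:**
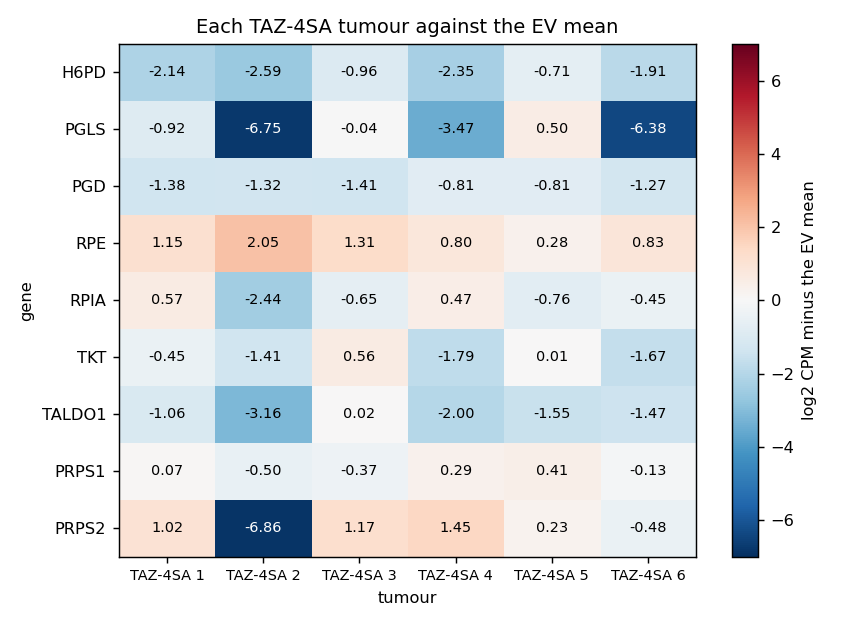
Difference of log2 CPM from the EV mean (colour and printed value, deposited scale) for the 9 genes (rows) in the 6 TAZ-4SA tumours (columns). H6PD and PGD are negative and RPE positive in every column, PGLS in tumours 2 and 6 and PRPS2 in tumour 2 rest on 0 to 2 reads and depend on the authors' prior, and tumour 2 is the lowest column for 6 genes.

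The branches were not parallel within a tumour. The PGD to TKT ratio, a quotient of CPM levels, was 0.594, 0.470 and 0.524 in EV tumours 1, 2 and 3. In TAZ-4SA it ran from 0.134 in tumour 3 to 1.04 in tumour 4, on both sides of the EV values. The H6PD to PGD ratio, endoplasmic reticulum against cytosolic dehydrogenase, was between 1.15 and 1.5996 in EV and between 0.484 and 1.93 in TAZ-4SA, so the 2 genes that fell did not keep a fixed proportion.

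Divided by transcript length (CPM per kb, with median GENCODE lengths of 925 bases for RPE to 7368 bases for H6PD), TALDO1 and TKT were the most abundant members in EV, at 95.9 ± 12.4 and 87.4 ± 3.71 CPM per kb (SD, n = 3), and overlapped. PGD followed at 60.0, PRPS1 at 51.8 and PGLS at 36.8 CPM per kb, each overlapping the next. H6PD at 21.8 overlapped RPIA at 19.1, and RPE at 14.7 overlapped PRPS2 at 12.4 CPM per kb. In TAZ-4SA the order of the means was TKT at 60.9, PRPS1 at 51.3, TALDO1 at 40.6, RPE at 32.8, PGD at 27.1, PRPS2 at 18.4, PGLS at 18.2, RPIA at 15.9 and H6PD at 7.11 CPM per kb. Every pair of neighbours in that order overlapped. PGD stood above RPE without overlap in EV (lowest PGD 54.9, highest RPE 17.3 CPM per kb), and in TAZ-4SA the 2 genes overlapped.

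**Figure D4:**
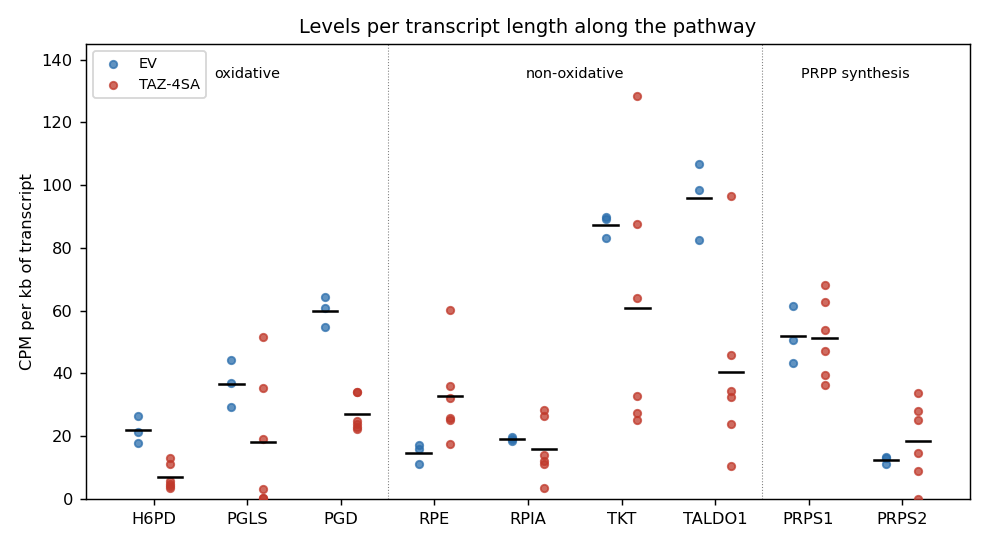
CPM per kb of transcript (vertical axis) for the 9 genes in pathway order, EV in blue (n = 3) and TAZ-4SA in red (n = 6), with a bar at each group mean. TKT and TALDO1 are highest in EV, and in TAZ-4SA they range from 10.6 to 128 CPM per kb.

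Of 15 other genes of the pathway and its edges, 14 had a row and 13 were tested, of which 4 were called lower, 0 higher and 9 not called, with a median log2 fold change of -1.51. Over all genes tested, 12.6% were called lower and 9.08% higher, with a median of -0.83. PGM1, phosphoglucomutase, which links glucose 6-phosphate to glycogen, fell from 226 ± 39.5 to 71.9 ± 22.4 CPM (limma adjusted p = 0.003878). PRPSAP1, a regulatory partner of the PRPP synthetases, fell from 133 ± 13.01 to 48.6 ± 16.6 CPM (limma adjusted p = 0.007866), and was not called without EV tumour 2 (0.06533). Its relative PRPSAP2 was not called, at 23.7 ± 1.84 CPM in EV and 19.3 ± 14.1 CPM in TAZ-4SA. TKTL1, a transketolase-like gene, had 40.1, 42.4 and 104 CPM in EV tumours 1, 2 and 3, and 6.57 and 5.60 CPM in TAZ-4SA tumours 1 and 5 with 0 reads in the other 4 (limma adjusted p = 0.0122; 0.05053 and 0.06241 without EV tumour 2 and 3).

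RGN, a gluconolactonase, had 3.98, 4.13 and 4.58 CPM in EV and 0 reads in all 6 TAZ-4SA tumours. Set against a floor of 3 reads per library, a mean of 0.419 CPM, RGN was at least 10.1-fold lower, for counting error only (limma adjusted p = 0.002307). TIGAR, a phosphatase that diverts sugar phosphate towards the pathway, was not called, at 33.9 ± 23.6 CPM in EV and 59.8 ± 35.1 CPM in TAZ-4SA, with a log2 fold change of 0.28 that turned to -0.14 without EV tumour 2 and to -0.030 without TAZ-4SA tumour 4. TKTL1 and RGN were thus close to or at 0 reads in most TAZ-4SA tumours, while PGM1 and PRPSAP1 were above 30 CPM in all 6.

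Of 7 enzymes that use PRPP, 6 were tested, of which 1 rose (9.08% of all genes tested did), 1 fell (12.6% did) and 4 were not called. NAMPT, which makes nicotinamide mononucleotide on the way to NAD, rose from 24.5 ± 1.73 to 96.9 ± 51.4 CPM, with a log2 fold change of 1.82 ± 0.43 (limma adjusted p = 0.0101), and all 6 TAZ-4SA tumours, at 52.6 to 186 CPM, were above EV. APRT, which salvages adenine, fell from 117 ± 6.37 to 43.0 ± 16.2 CPM (limma adjusted p = 0.01298) and was not called without EV tumour 1, 2 or 3 (0.07736, 0.0743 and 0.0516). The first enzyme of purine synthesis, PPAT, was not called, at 9.48 ± 0.628 CPM in EV and 23.4 ± 11.6 CPM in TAZ-4SA (limma adjusted p = 0.2371).

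The genes whose log2 CPM over the 9 tumours was most like that of PGD, among 10387 genes at a mean of at least 10 CPM, were POLDIP3, CD59, EXTL1, MVB12B and PDIA6 (Pearson r 0.983 to 0.973). All 5 were lower in each TAZ-4SA tumour than in each EV tumour. Those most like TKT were TOMM40, AMDHD2, JADE3, ZDHHC8 and SGTA (r from 0.983 down to 0.9753), each highest in TAZ-4SA in tumour 3 or 5. Among the members, H6PD was the most like PGD (r = 0.803, n = 9) and PGLS the most like TKT (r = 0.885, n = 9), and RPE was the least like PGD (r = -0.845, n = 9). These correlations describe the 9 tumours, which share the group difference and the detection differences between libraries.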

How the data were processed

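Libraries were made from total RNA of 9 tumours with SMART-Seq mRNA HT and Nextera XT kits, per the labels' protocols, a chemistry that does not mark strand. HISAT2, edgeR and GRCh38 are named in the submitters' processing notes. How reads were counted, and whether those of the mouse host were removed, is not stated there. The deposited table holds log2 CPM, a unit read from its values. The shared lowest value of -2.79 is a prior of 0.145 CPM. With it removed, 100% of values under 5000 reads were whole multiples of 1 step within 0.1 read, which gave reads per gene, and a floor of 3 reads.

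Groups came from the labels. These name no animal for any tumour, and p-values therefore cover only the variation among the 9 libraries, which may be technical. No replicate pair agreed within sampling noise (closest chi-square per degree of freedom 18.6). limma 3.58.1 (R 4.3.3; trend, robust) was fitted to the deposited log2 values for 15294 genes at a mean of at least 1 CPM, with Benjamini-Hochberg adjustment at 0.05, and was checked on simulated data. In the PRPS1 to PRPS2 ratio, planned without a pseudocount, PRPS2 was set to the floor in the 1 tumour with 0 reads. Fold changes carry the prior, which shrinks the change of genes low in a whole group. Its size also sets how far a tumour with 0 reads pulls the group mean, as for PRPS2. The named genes are the 9 members, called genes of 2 lists of 15 and 7 genes with PRPSAP1, PRPSAP2 and TIGAR, and the 5 genes most like PGD and TKT. PPAT, RPEL1, KANSL1L, PRPS1L1 and 3 of the 4 within-tumour ratios were added after their values were seen. Members and lists were chosen with earlier results of these data known. Coordinates and promoters are from RefSeq (GRCh38.p14), and lengths are medians of protein-coding transcripts in the basic set of GENCODE 29. Alternatives were other pseudocounts, scalings, filters, weights, limma-voom on the reads, a replicate block and tumours left out.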

Additional observations from a re-analysis of the deposited data

Results flagged for a closer look

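PRPS2 in TAZ-4SA tumour 2 stood apart from the other 5 tumours of its group, at -2.79 on the deposited log2 scale, which is 0 reads, while the others lay between 3.59 and 5.52. The gap to its nearest neighbour, 0.77 of the range, exceeded the 95% critical value of Dixon's test over 6 samples, 0.625. The authors' prior sets the place of 0 reads on that scale, and on the CPM scale the gap was 0.26 of the range. Of 18 such comparisons, 9 genes on the log2 and the CPM scale, PRPS2 on the log2 scale was the 1 past that value, and chance gives about 1 in 20.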

How the results depend on the processing

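H6PD and PGD were lower and RPE higher in each of the 23 alternatives, H6PD being called in 20, PGD in 19 and RPE in 2. H6PD ranged from -2.01 to -1.59, PGD from -1.37 to -1.09 and RPE from 0.75 to 1.5 on the log2 scale. The 2 members called lower became 5 with array weights (TKT, TALDO1 and PGLS added) and 0 with the replicate block, and ranged from 0 to 3 when 1 tumour was left out. The 0 members called higher became 1 (RPE) with limma-voom weighted per group and 1 (RPE) in tumours 1 to 3 of each group, a fit added after seeing the data. PRPS1 turned to 0.040 with quantile normalization, 0.073 with array weights and 0.120 without TAZ-4SA tumours 2, 3 and 4, and ranged from -0.16 to 0.095 with 1 tumour left out. PRPS2 turned to 0.165 and 0.227 with limma-voom without and with weights per group and 0.257 without those 3 tumours, and ranged from -0.98 to 0.68 with 1 tumour left out. TIGAR turned to -0.85 in tumours 1 to 3, with and without the block, and to -0.18 without TAZ-4SA tumours 5 and 6, and ranged from -0.14 to 1.24 with 1 tumour left out. The PRPS1 to PRPS2 difference was -0.026 with a pseudocount of 2 CPM and from -0.63 to 0.74 with 1 tumour left out. The cause was not tested. Same-numbered tumours did not deviate together (r = 0.001, -0.033 and -0.009). The labels do not say whether equal numbers mark a shared batch, and deviations over 3 tumours per group cannot settle it. With the replicate block, TKTL1, PGM1, PRPSAP1 and NAMPT were not called either, and no tumour correlated best with its own number.

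Genes called higher and lower over the table were 1388 and 1932, and 2536 and 5461 with array weights, 2258 and 4245 with limma-voom weighted per group, 1303 and 3616 with limma-voom, 1507 and 3384 with no filter, 1394 and 962 at a mean of at least 10 CPM, 545 and 1959 with the block, and 810 and 773, 785 and 739, and 1006 and 884 without EV tumour 1, 2 and 3. Members rest on few reads in TAZ-4SA tumours 5 and 6, which had 3299325 and 3144861 reads: PGD had 230 and 153 there, RPE 58 and 78, and PRPS2 70 and 39.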
